A study of Rattus norvegicus with 47 samples.

Results

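The genes described here are 9 rat genes of MHC class II antigen presentation, measured in blood before and after occlusion of the middle cerebral artery (MCA). They are Cd74, RT1-Ba, RT1-Bb, RT1-Da, RT1-Db1, RT1-DMa, RT1-DMb, RT1-DOb and Ciita, chosen by gene symbol. A probe set was taken as a gene's when the table's gene symbol was exactly that name. Each of the 9 genes had 1 probe set, so the members are 9 of the table's 27596 probe sets, of which 21406 carried a symbol.

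All samples came from 8 male spontaneously hypertensive rats (SHR) aged 16 weeks, and all 8 rats underwent thread occlusion of the MCA. Blood was drawn at 0 h, just before anesthesia was induced, and at 1, 2, 3, 6 and 24 h post MCA occlusion, and each blood sample gave 1 array. The 47 arrays were 7 for the 6 h samples and 8 for each of the other times. The occlusion was transient, and anesthesia for reperfusion fell between the 1 h and the 2 h samples. Samples up to 6 h were drawn from the tail vein into heparin and the 24 h sample was taken from the heart under anesthetic overdose, so that time and sampling site cannot be told apart at 24 h. No sham-operated rats were among the samples, so occlusion, surgery, anesthesia, repeated bleeding and hour of the day cannot be told apart either.

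MHC class II molecules are pairs of an alpha and a beta chain that hold peptides from the endosomes on the surface of antigen-presenting cells, where CD4 T cells read them. In blood they are carried mainly by B cells, monocytes and dendritic cells. In the endoplasmic reticulum the new pair binds the invariant chain, encoded by Cd74, which keeps the groove closed until proteases cut it down to a short fragment. The DM molecule then exchanges this fragment for other peptides, and the DO molecule restrains DM. Transcription of these genes is driven by CIITA, the class II transactivator, which binds no DNA itself and is recruited by factors sitting on the X and Y boxes of class II promoters.

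The promoter letters of 6 members are shown because the boxes that recruit CIITA are what the class II genes are known to share. RefSeq windows of the assembly GRCr8, running from 250 bases before to 50 bases after the gene's start, were found for 7 of the 9 members, all but RT1-DMb and Ciita. That assembly is of the BN strain, and the promoters of SHR rats were not used here. Capitals mark the Y box core ATTGG, the X box core AACNGATG and, in RT1-Ba, overlapping matches of the CRE-like core TGACG on both strands. Each stretch of 70 bases is written 5′ to 3′ on the gene's own strand.
RT1-Da, chr20:4515311-4515380, plus strand: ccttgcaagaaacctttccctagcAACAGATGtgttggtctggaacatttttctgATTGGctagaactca
RT1-Db1, chr20:4560228-4560297, minus strand: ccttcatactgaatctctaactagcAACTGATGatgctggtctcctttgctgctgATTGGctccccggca
RT1-DOb, chr20:4627592-4627661, minus strand: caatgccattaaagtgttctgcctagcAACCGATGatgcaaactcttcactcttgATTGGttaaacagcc
RT1-Ba, chr20:4576959-4577028, plus strand: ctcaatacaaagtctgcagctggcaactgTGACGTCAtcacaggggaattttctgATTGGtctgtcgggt
RT1-Bb, chr20:4604165-4604234, minus strand: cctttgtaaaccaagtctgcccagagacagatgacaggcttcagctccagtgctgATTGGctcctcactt
RT1-DMa, chr20:4712385-4712454, minus strand: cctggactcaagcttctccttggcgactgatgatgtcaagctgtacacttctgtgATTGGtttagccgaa

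ATTGG, searched on both strands, lay in 7 of the 7 member windows and in 37.5% of all 33469 RefSeq promoter windows of the same length. AACNGATG lay in 3 of the 7, those of RT1-Da, RT1-Db1 and RT1-DOb, and in 2.58% of all windows. In these 3 the X box core started 31, 30 and 28 bases before the Y box core. An X box core within 40 bases of a Y box core was found in 0.344% of all windows. TGACG lay in the window of RT1-Ba and of no other member, and in 21.2% of all windows. For Cd74 the ATTGG match was on the reverse strand, at position -189 from the start. A match describes letters only, and no binding was measured.

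In the values below, a level is the authors' mean log2 signal at a time point with their deposited SD over its 7 or 8 arrays, and a change is a difference of 2 such means. A level of one gene is not comparable with that of another, since probe sets differ in their response. Changes were tested by limma's moderated test worked out from the authors' means, their SDs and the number of arrays, and adjusted p-values are Benjamini-Hochberg values over all 27596 probe sets, with a threshold of 0.05. This test takes the arrays as independent although each rat gave samples at successive times. Median SDs over all probe sets were between 0.14 and 0.16 at the 6 time points. No depth applies to arrays, and their number limits the precision.

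Expression of 8 of the 9 genes fell by 1 h post MCA occlusion, lay lowest at 2 or 3 h and remained below 0 h at 24 h. The exception was RT1-Bb. Over the 6 time points all 9 passed limma's moderated F test at an adjusted p under 0.05, as did 55.5% of all probe sets. The adjusted p of this test ran from 1.24e-17 for RT1-Da to 1.38e-07 for RT1-DMa, and was 0.000274 for RT1-Bb, which did not pass a Bonferroni-adjusted p of 0.05 while the other 8 did. At each of 1, 2, 3, 6 and 24 h, 8 of the 9 were lower than at 0 h. Of all probe sets, 15.4%, 18.6%, 19.2%, 19.3% and 13.9% were lower at these times, in the same order. The median change of the 9 genes was -1.05, -1.19, -0.96, -0.80 and -0.57 on the log2 scale. The median change of all probe sets was between 0.04 and 0.07 at these times. In a whole blood sample, fewer cells of a type and less RNA per cell cannot be told apart.

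**Figure D1:**
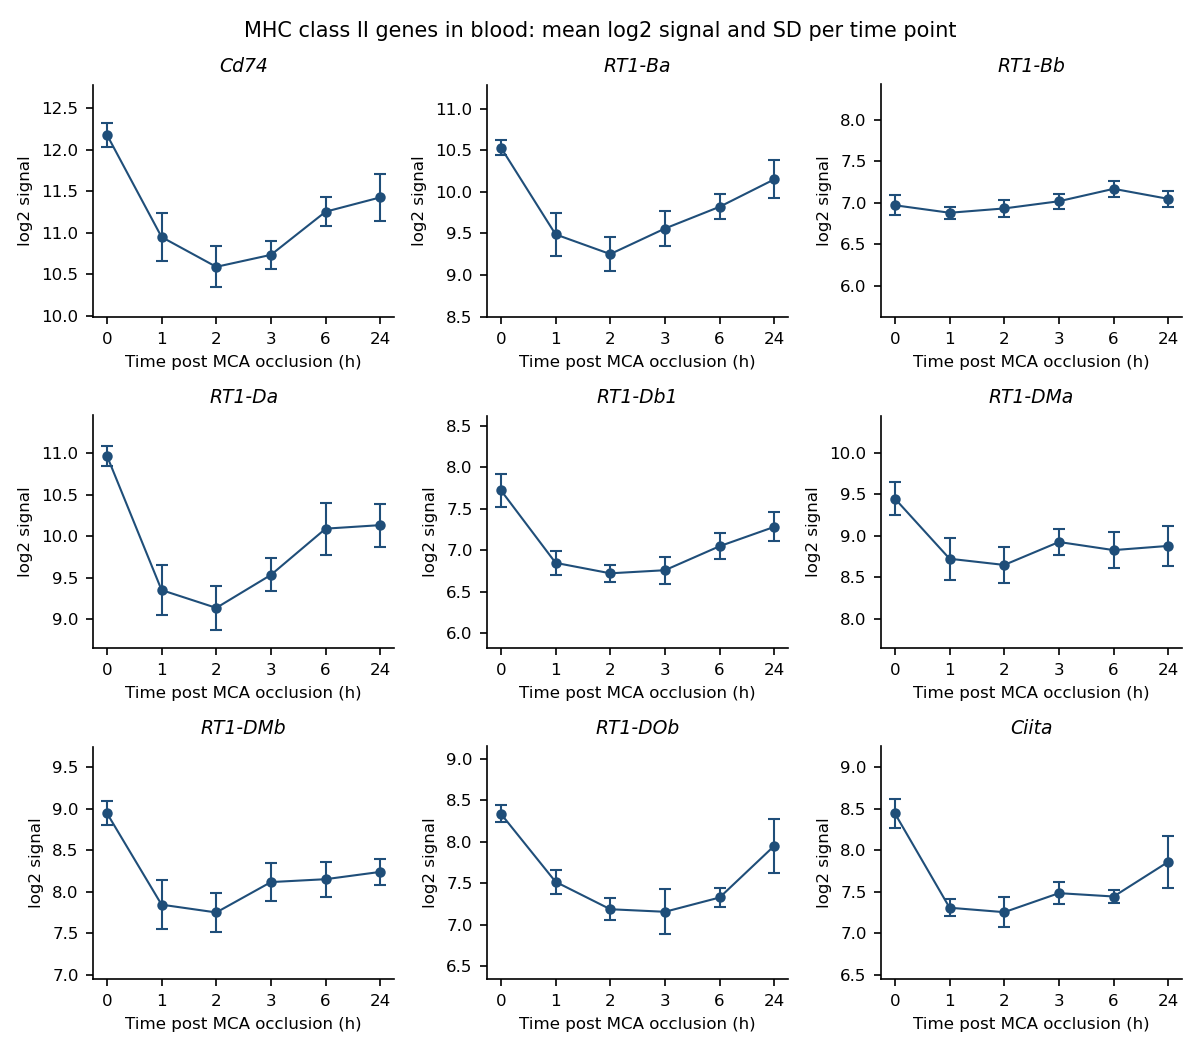
Mean log2 signal of each of the 9 MHC class II genes at 0, 1, 2, 3, 6 and 24 h post MCA occlusion. Points are the authors' means and bars their SDs over 8 arrays (7 at 6 h), the time axis is not to scale, and all panels span the same range of log2 units around different levels. The means of 8 genes dropped between 0 and 1 h by 0.72 (RT1-DMa) to 1.62 (RT1-Da), while that of RT1-Bb differed by -0.09, and none of the 8 was back at its 0 h mean at 24 h.

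Cd74 encodes the invariant chain. Its mean levels were 12.18 ± 0.14, 10.95 ± 0.29, 10.59 ± 0.25, 10.74 ± 0.17, 11.26 ± 0.17 and 11.43 ± 0.28 (SD, n = 8, but 7 at 6 h) at 0, 1, 2, 3, 6 and 24 h, in that order. The lowest mean was thus at 2 h, and every later mean was under that at 0 h by more than the SDs of both time points together. The signal was 2.35-fold lower at 1 h (change -1.23, SE 0.11, limma adjusted p = 2.06e-12) and 3.01-fold lower at 2 h (change -1.59, SE 0.11, adjusted p = 1.27e-16). It was 1.69-fold lower at 24 h (change -0.75, adjusted p = 8.82e-07). At 1 h the fall had reached 77.4% of its largest size, and 47.4% of that size was left at 24 h.

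Values of single arrays were not used, since the names of their columns give neither rat nor time point, but the SDs bound where they can lie. No value of a group of 8 lies further from its mean than 2.646 SDs, nor of a group of 7 further than 2.449 SDs. Where 2 means are further apart than the sum of these bounds, all arrays of the later time were below all arrays at 0 h. For Cd74 this held at 1, 2, 3 and 6 h and could not be shown at 24 h. Of the 9 genes it held for 5, 7, 6, 4 and 0 at 1, 2, 3, 6 and 24 h, and among all probe sets for 0.362%, 1.54%, 0.928%, 1.4% and 0.112% at the same times.

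RT1-Da and RT1-Db1 encode the alpha and a beta chain of the rat D molecule, the counterpart of human HLA-DR. RT1-Da had mean levels of 10.97 ± 0.12, 9.35 ± 0.30, 9.14 ± 0.26, 9.54 ± 0.20, 10.09 ± 0.31 and 10.13 ± 0.26 at 0, 1, 2, 3, 6 and 24 h, in that order. At 2 h it was 3.56-fold lower than at 0 h (change -1.83, SE 0.12, adjusted p = 1.8e-17), the largest fall among the 9 genes. Among all 27596 probe sets its fall ranked 15th at 1 h and 27th at 2 h, and that of Cd74 ranked 41st and 48th. All arrays at 1, 2 and 3 h were below all arrays at 0 h by the SD bound. The 6 h and 24 h means of RT1-Da differed by 0.04 (95% interval -0.21 to 0.29).

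RT1-Db1 had mean levels of 7.72 ± 0.20, 6.85 ± 0.14, 6.72 ± 0.11, 6.76 ± 0.16, 7.05 ± 0.16 and 7.28 ± 0.17 at 0, 1, 2, 3, 6 and 24 h, in that order. The means at 1, 2 and 3 h lay within 0.13 of each other. At 2 h it was 2.0-fold lower than at 0 h (95% interval of the change -1.16 to -0.84, adjusted p = 1.35e-14), and the arrays at 2 and 3 h were all below those at 0 h by the SD bound. At 24 h 44.1% of the largest change was left (change -0.44, adjusted p = 3.48e-05).

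RT1-Ba and RT1-Bb encode the alpha and beta chain of the rat B molecule, the counterpart of human HLA-DQ, and their probe sets did not move alike. RT1-Ba had mean levels of 10.53 ± 0.09, 9.49 ± 0.26, 9.25 ± 0.20, 9.56 ± 0.21, 9.82 ± 0.15 and 10.15 ± 0.23 at 0, 1, 2, 3, 6 and 24 h, in that order. It was 2.43-fold lower at 2 h (change -1.28, SE 0.10, adjusted p = 2.96e-15). At 24 h it was 1.30-fold lower (change -0.38, adjusted p = 0.00234) and 29.8% of its largest change was left, the least among the 8 genes that fell.

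RT1-Bb had mean levels of 6.97 ± 0.12, 6.88 ± 0.07, 6.93 ± 0.10, 7.02 ± 0.09, 7.17 ± 0.10 and 7.05 ± 0.09 at 0, 1, 2, 3, 6 and 24 h, in that order. These 6 means spanned 0.29, while those of RT1-Ba spanned 1.28. The change of RT1-Bb at 2 h was -0.04 (95% interval -0.14 to 0.07, adjusted p = 0.58). At 1 h it was -0.09 (adjusted p = 0.17), and -0.14 when the means were centred on their median, which passed the test (adjusted p = 0.0361). In the test as designed, its one change from 0 h past the threshold was a rise of 0.20 at 6 h (SE 0.05, adjusted p = 0.00267), at which time 22.5% of all probe sets were higher than at 0 h. The annotation of rn5 gives this probe set no position, listing it on the unplaced chromosome U, and it was the only probe set of that symbol. Class II genes differ in sequence between rat strains, and whether the probes match the SHR alleles was not tested.

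**Figure D2:**
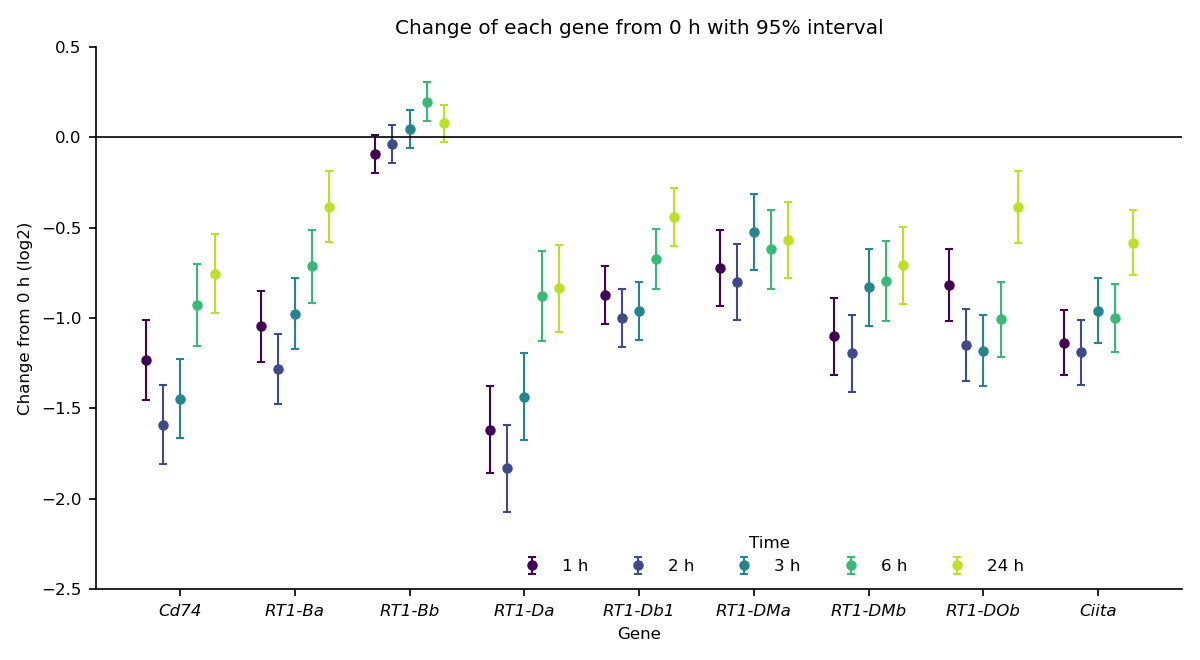
Change of each of the 9 genes from 0 h, as the difference of the authors' mean log2 signals at 1, 2, 3, 6 and 24 h, with the 95% interval of the moderated test as bars. The intervals of 8 genes lie below 0 at all 5 times, and those of RT1-Bb include 0 except at 6 h, where its change was 0.20.

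RT1-DMa and RT1-DMb encode the DM molecule, which exchanges the peptides. RT1-DMa had mean levels of 9.45 ± 0.20, 8.72 ± 0.25, 8.65 ± 0.22, 8.92 ± 0.15, 8.83 ± 0.22 and 8.88 ± 0.24 at 0, 1, 2, 3, 6 and 24 h, in that order. It had the smallest fall of the 8, 1.74-fold at 2 h (change -0.80, SE 0.10, adjusted p = 1.87e-08), and at no time did the SD bound separate its arrays from those at 0 h. At 24 h 71.3% of its largest change was left, the most among the 8 (change -0.57, adjusted p = 4.68e-05).

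RT1-DMb had mean levels of 8.95 ± 0.15, 7.84 ± 0.30, 7.75 ± 0.24, 8.12 ± 0.23, 8.15 ± 0.21 and 8.24 ± 0.16 at 0, 1, 2, 3, 6 and 24 h, in that order. Its mean at 24 h stayed nearer to that at 2 h than to that at 0 h. It was 2.29-fold lower at 2 h (change -1.20, SE 0.11, adjusted p = 4.55e-13), and 59.2% of this was left at 24 h. The 95% intervals of the changes at 2 h did not overlap between RT1-DMa (-1.01 to -0.59) and RT1-Da (-2.07 to -1.59). Differences between genes were not tested, since how 2 probe sets vary together needs the columns of single arrays, which were not used here.

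RT1-DOb, the beta chain of the DO molecule that restrains DM and is known from B cells, had its lowest means at 2 and 3 h. Its mean levels were 8.34 ± 0.10, 7.52 ± 0.15, 7.19 ± 0.13, 7.16 ± 0.27, 7.33 ± 0.12 and 7.95 ± 0.33 at 0, 1, 2, 3, 6 and 24 h, in that order. The means at 2 and 3 h differed by 0.03, less than either SD, so their order is not settled. At 1 h RT1-DOb had reached 69.4% of its largest change, the least among the 8, and at 6 h it was still 2.01-fold lower than at 0 h (change -1.01, SE 0.10, adjusted p = 2.32e-11). At 24 h 32.6% of its largest change was left (change -0.38, adjusted p = 0.00263), and its SD was then the highest of the 6 time points.

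Ciita had mean levels of 8.44 ± 0.17, 7.31 ± 0.10, 7.25 ± 0.18, 7.48 ± 0.13, 7.44 ± 0.08 and 7.86 ± 0.32 at 0, 1, 2, 3, 6 and 24 h, in that order. The means from 1 to 6 h lay within 0.23 of each other, and all arrays at each of these 4 times were below all arrays at 0 h by the SD bound. At 1 h the transcript of the transactivator was at 45.5% of the signal at 0 h (change -1.14, SE 0.09, adjusted p = 7.21e-14), which was 95.5% of its largest change. At 6 h it was 2.0-fold lower (adjusted p = 1.48e-12), and at 24 h 49.0% of its largest change was left (change -0.58, adjusted p = 2.45e-06).

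The positions of the probe sets on rn5, as the table's annotation gives them, placed Ciita on chromosome 10 (4036887 to 4083966, minus strand) and Cd74 on chromosome 18 (55305873 to 55315248, plus strand). Of the others, 6 lay on chromosome 20, which carries the rat MHC. RT1-DOb was at 6099930 to 6115821 and RT1-Db1 at 6167451 to 6177303, both on the plus strand. RT1-Ba at 6146269 to 6150835, RT1-Da at 6207781 to 6212719, RT1-DMb at 7288114 to 7295287 and RT1-DMa at 7302036 to 7305422 were on the minus strand. The fall was thus measured at genes on 3 chromosomes, with Ciita and Cd74 outside the MHC. A probe set on this array combines probes along the whole transcript, so that its signal is not tied to one exon.

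**Figure D3:**
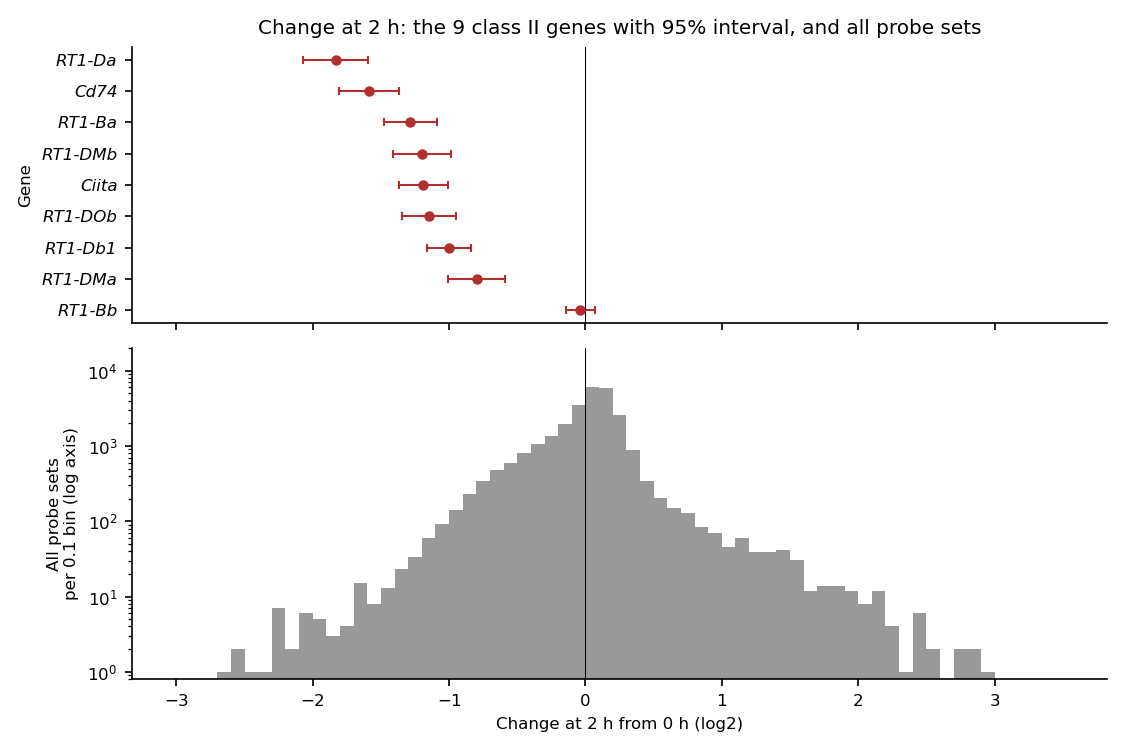
Change at 2 h from 0 h on the log2 scale. The upper panel gives the 9 genes with the 95% interval of the moderated test, and the lower panel counts all 27596 probe sets in bins of 0.1 on a log axis; 8 of the genes lie in the lower tail, between -1.83 and -0.80, while the median of all probe sets was 0.05.

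The course between neighbouring time points was compared next. From 1 to 2 h, 2 of the 9 genes fell further, Cd74 by 0.36 (adjusted p = 0.0289) and RT1-DOb by 0.33 (adjusted p = 0.0252), and 0 were higher. Of all probe sets 4.11% were lower and 4.66% higher over this step. From 2 to 3 h, RT1-Da rose by 0.40 (adjusted p = 0.048) and RT1-DMb by 0.37 (adjusted p = 0.0389), against 1.9% of all probe sets higher and 1.62% lower. The rise of RT1-Da in this step missed the threshold when the means were centred on their median (adjusted p = 0.0558), after quantile normalization of the means (0.0598) and in the ordinary test (0.0651), and that of RT1-DMb missed it in the ordinary test (0.0523).

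From 3 to 6 h, 3 genes rose, Cd74 by 0.52 (adjusted p = 0.00309), RT1-Da by 0.56 (adjusted p = 0.00352) and RT1-Db1 by 0.29 (adjusted p = 0.0285). Over this step 2.34% of all probe sets were higher and 2.44% lower. From 6 to 24 h, 4 genes rose, RT1-DOb by 0.62 (adjusted p = 6.2e-06), Ciita by 0.42 (adjusted p = 0.000611), RT1-Ba by 0.33 (adjusted p = 0.0141) and RT1-Db1 by 0.23 (adjusted p = 0.0383). For RT1-Db1 the adjusted p was 0.0503 after centring and 0.0754 after quantile normalization. Over the last step 10.2% of all probe sets were higher and 8.68% lower, and none of the 9 genes was lower in the test as designed. RT1-DMa had no step after 1 h that passed the test.

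The steps that passed the test differed between genes. Cd74 and RT1-Da rose between 3 and 6 h, and their changes from 6 to 24 h were 0.17 (adjusted p = 0.332) and 0.04 (adjusted p = 0.87). RT1-DOb and Ciita rose between 6 and 24 h, and from 3 to 6 h they differed by 0.17 (adjusted p = 0.399) and -0.04 (adjusted p = 0.877). Whether the timing differed between these pairs was not tested.

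A further 23 genes of the class II pathway outside the 9 were taken from a list of related chains, processing enzymes, promoter-binding factors and partners on the cell surface. Of these, 11, 13, 11, 10 and 9 were lower and 2, 2, 3, 3 and 2 higher than at 0 h at 1, 2, 3, 6 and 24 h. Of all probe sets, 21.7%, 21.7%, 27.3%, 22.5% and 17.4% were higher at these times. The median change of the 23 genes was between -0.33 and -0.16 at the 5 times, nearer to 0 than that of the 9 members.

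The other class II chains fell with the members. RT1-DOa, the alpha chain of DO, RT1-Db2, another D beta chain, and RT1-Ha were lower at 1, 2, 3 and 6 h. RT1-Db2 reached -0.83 at 3 h (adjusted p = 1.89e-12), RT1-Ha -0.57 at 2 h (adjusted p = 1.41e-08) and RT1-DOa -0.33 at 2 h (adjusted p = 4.33e-05). At 24 h RT1-Ha had a change of -0.08 (adjusted p = 0.447). RT1-Db1 and RT1-Db2 are close relatives, and whether probes are shared between them was not tested.

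The 7 lysosomal genes moved in both directions, with 4 lower and 2 higher at 2 h. Ctss, encoding cathepsin S, the main protease of the invariant chain in antigen-presenting cells, was 0.34 higher at 3 h (adjusted p = 0.000441) and had a change of -0.27 at 24 h (adjusted p = 0.00845). Ctsd, encoding cathepsin D, was 0.42 higher at 1 h (adjusted p = 0.000748). Ifi30, encoding the lysosomal thiol reductase GILT, was 1.14 lower at 1 h (change -1.14, adjusted p = 1.96e-12), and its changes at 3 and 24 h were -0.09 (adjusted p = 0.474) and -0.44 (adjusted p = 0.000758). Lgmn, encoding the asparagine endopeptidase legumain, had a change of -0.74 at 2 h (adjusted p = 4.21e-08).

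The 7 factors that sit on the X and Y boxes had changes between -0.34 and 0.56 over the 5 times. At 2 h, 3 of the 7 were lower and 0 higher, with a median change of -0.18. Nfyc, a subunit of the Y box factor NF-Y, had a change of -0.34 (adjusted p = 2.62e-05), Rfx5, of the X box complex RFX, -0.26 (adjusted p = 0.000955), and Rfxap, of the same complex, -0.21 (adjusted p = 0.00271). Creb1, whose product binds CRE-like sites, was 0.56 higher at 6 h (adjusted p = 0.00198).

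Among partners on the cell surface, Cd4, the co-receptor that binds class II molecules, had its largest change at 6 h (-1.55, adjusted p = 7.78e-15). Cd86, a costimulatory ligand of antigen-presenting cells, had changes of -1.05 at 3 h (SE 0.12, adjusted p = 9.7e-10) and -1.07 at 6 h (SE 0.13, adjusted p = 1.5e-09). These lay closer together than either SE, so the time of its lowest level is not settled. Cd83, whose product keeps class II molecules on the surface, reached -0.99 at 3 h (adjusted p = 1.34e-13). Cd40 and Lag3 passed the test at none of the 5 times, and their changes lay between -0.17 and 0.10. Cd80 passed it at 3 h (change -0.37, adjusted p = 0.044).

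Class I presentation was set beside class II through 11 genes of its loading pathway. Of these 5, 5, 5, 6 and 8 were lower at 1, 2, 3, 6 and 24 h, and 1, 2, 0, 0 and 0 were higher. Their median change was -0.11 at 2 h and -0.37 at 24 h, so that it was furthest from 0 at 24 h, while that of the class II genes was furthest from 0 at 2 h. B2m, the light chain of class I molecules, had changes between -0.03 and 0.04 at the 5 times. Nlrc5, the class I transactivator, was 0.33 higher at 2 h (adjusted p = 0.000722), when Ciita was 2.28-fold lower, and had a change of -0.37 at 24 h (adjusted p = 0.000375). Erap1, which trims peptides for class I molecules, had a change of -0.85 at 2 h (adjusted p = 2.05e-12).

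Markers of the blood cells that carry class II molecules were set beside the members. Of 12 B cell markers, 11, 12, 11, 11 and 9 were lower at 1, 2, 3, 6 and 24 h. Their median changes were -1.26, -1.70, -1.76, -1.45 and -0.44, and their summed signal ranged from 29.1% of that at 0 h (3 h) to 70.7% (24 h). Among them, Cd79b, of the B cell receptor, had a change of -2.37 at 2 h (adjusted p = 1.22e-20), and Ms4a1, encoding CD20, -2.56 (adjusted p = 1.36e-20). Blk, a kinase of B cells, changed less at 2 h (-0.33, adjusted p = 0.000276). Pax5 changed least of the list at 2 h (-0.18, adjusted p = 0.0171) and did not pass the test at 1, 3, 6 or 24 h. A summed signal adds linear signals over probe sets, so that bright probe sets weigh most in it.

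The 8 monocyte markers moved in both directions. At 3 h, 3 were lower and 4 higher, with a median change of 0.17 and a summed signal of 134% of that at 0 h, against 70.6%, 105%, 123% and 87.7% at 1, 2, 6 and 24 h. Csf1r, the receptor of the monocyte growth factor, had a change of -0.87 at 3 h (adjusted p = 6.77e-07), and Cx3cr1, of patrolling monocytes, -1.45 (adjusted p = 1.03e-10). Cd14, of classical monocytes, was 1.84 higher at 3 h (adjusted p = 1.04e-13).

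Of 8 dendritic cell markers, 3 were lower and 2 higher at 2 h, and their median change was between -0.06 and 0.06 at the 5 times. Their summed signal was between 87.7% and 108% of that at 0 h. Irf8, a factor of dendritic cells that B cells and monocytes also use, had a change of -1.07 at 2 h (adjusted p = 2.49e-11), and Siglech, of plasmacytoid dendritic cells, -0.68 (adjusted p = 1.31e-07). Clec10a, a lectin of conventional dendritic cells and macrophages, was 0.87 higher at 2 h (adjusted p = 7.9e-11).

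Markers of cells that carry little class II at rest were examined too. All 8 T cell markers were lower at each of the 5 times, with a median of -0.96 at 2 h and -1.14 at 6 h and a summed signal between 44.7% and 70.3% of that at 0 h. Of 5 NK cell markers, 1, 3, 3, 4 and 4 were lower and 1, 1, 0, 1 and 0 higher at 1, 2, 3, 6 and 24 h, with a median change between -0.82 (24 h) and -0.16 (1 h) and a summed signal between 56.3% (24 h) and 103% (1 h) of that at 0 h. All 8 neutrophil markers were higher at each of the 5 times, with a median change of 1.49 at 2 h and 1.82 at 6 h and a summed signal between 173% and 318% of that at 0 h. The 4 platelet markers had median changes between 0.04 and 0.27. The part of these marker changes in the changes of the class II genes was not tested.

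**Figure D4:**
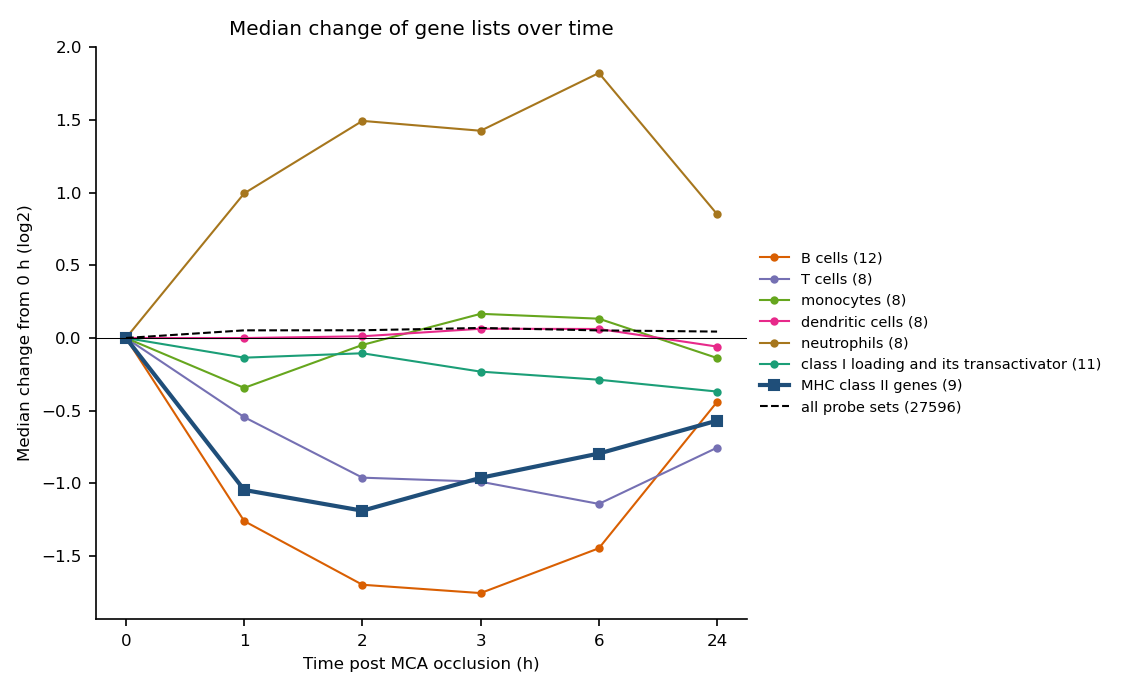
Median change from 0 h on the log2 scale of the 9 MHC class II genes (thick line, squares), of 6 other gene lists (circles, number of genes in brackets) and of all probe sets (dashed) over time, which is not drawn to scale. The class II genes were furthest from 0 at 2 h (-1.19), the B cell markers at 3 h (-1.76), the T cell markers at 6 h (-1.14) and the class I loading genes at 24 h (-0.37).

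The profiles of 8 members over the 6 means, all but RT1-Bb, were close to the common profile, the median of the 9 after each was centred on its own mean. Pearson's r with it was 1.00 for RT1-Db1, 0.99 for Cd74, 0.98 for RT1-Ba, RT1-Da and Ciita, 0.96 for RT1-DMb, 0.94 for RT1-DOb, 0.91 for RT1-DMa and 0.17 for RT1-Bb. These values describe 6 points that share arrays, and each member is part of the profile it is set against. Means spanning at least 1 log2 unit were found for 1078 probe sets. Among those with 1 symbol, the members left out, the 5 most like the common profile were Arpc5l (r = 1.00), Klf4 (0.99), LOC102555051 (0.99), Efr3a (0.99) and RragB (0.99). Arpc5l, a subunit of the actin-branching Arp2/3 complex, had changes of -0.95 at 1 h, -1.10 at 2 h and -0.48 at 24 h. Klf4, a transcription factor of monocytes among other cells, had changes of -1.10 at 1 h, -1.31 at 2 h and -0.70 at 24 h.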

How the data were processed

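Blood RNA of 8 rats was measured at 6 time points on 47 Affymetrix RaGene 1.0 ST arrays. The authors summarized the arrays by RMA and deposited, per probe set and time point, the mean log2 signal and, as other values, the SD, with the annotation of rn5. The submitters' processing notes name limma. The 47 columns of single arrays carry only a running number, which skips 1 place, and their order was not taken as a key to rats and time points. These columns and the authors' columns of fold changes, p-values, FDRs and F-tests were not used.

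From these means and SDs and the number of arrays, a model with 1 mean per time point was fitted to all 27596 probe sets (residual df 41, prior df 5.707; limma 3.58.1, R 4.3.3), with moderated t and F tests and Benjamini-Hochberg adjustment at 0.05. The test was also run on simulated data. The outcome of that run is not reported here, so it says nothing on the independence of arrays from the same rat. Tables were made with Python 3.11.15 and pandas 2.3.3. Alternatives were centring, quantile normalization, no moderation, a trend with robust prior, leaving out the lowest 25% of probe sets, the variance of the 2 times compared, a fit without 24 h, a Bonferroni-adjusted F test and, for lists, the mean over all probe sets of a symbol. The lists otherwise used the brightest probe set of a symbol.

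The 9 members and the lists (class II pathway, class I loading, B, T, NK and dendritic cells, monocytes, neutrophils, platelets) were chosen with earlier results of these data known. Genes named are the members, genes of these lists, and the 5 probe sets with profiles most like the members' median. RT1-Hb and the March1 and March8 genes were not found by symbol and are not analysed here, and a further list is not reported here. Samples are repeated blood draws of the same rats, and each array of a time point comes from a different rat. The p-values therefore measure the spread between rats at a time point, and the pairing of draws within a rat was not used.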

Additional observations from a re-analysis of the deposited data

How the results depend on the processing

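No paired analysis was possible because the names of the single-array columns carry no rat number. Their order was not used in place of one, which was a choice. The sample titles give rat and time point, but whether the columns run in the order of these titles was not tested. The planned fit with the rat as a block was therefore not run, and no array was left out in turn. A key to these columns would allow both. Each member had 1 probe set, so other probe sets of a member could not be tried, and protein sequences were not used here. Under the other alternatives, 73 of 77 counts of members called stayed within 1.5 times the value reported. The exceptions were the count higher at 3 h than at 2 h, which was 1 after centring, 1 after quantile normalization and 0 in the ordinary test, against 2, and the count lower at 24 h than at 6 h, which was 1 after quantile normalization (RT1-Bb, change -0.15, adjusted p = 0.0387), against 0. Of 504 values of single members, 496 kept their direction and side of the threshold, 6 lost the call (all of them steps of RT1-Da, RT1-Db1 or RT1-DMb after 1 h) and 2 gained one, both of RT1-Bb, the other being a change of -0.14 at 1 h after centring (limma adjusted p = 0.0361). All 130 medians of lists under the alternatives moved by less than the typical SD of the genes of the list between arrays. For lists these alternatives were only centring and the mean over all probe sets of a symbol. Centring moves all genes of a time point by the same small amount, and the other left most medians unchanged. Larger moves were thus hardly possible, and this count says little about how robust the medians are. The number of arrays, 7 or 8 at a time point, limits the precision.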
